A study of Mus musculus with 6 samples.

Results

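The contractile genes of smooth muscle and of myofibroblasts were followed in sorted mouse lung fibroblasts: the actins Acta2 and Actg2, the myosin genes Myh11 and Myl9, the kinase gene Mylk, the thin-filament genes Tagln, Cnn1, Tpm2 and Lmod1, and the intermediate filament gene Des. The 10 genes were taken by name from a table of 43430 genes, and each was found. Of these, 8 had enough counts to be tested, among 13005 tested genes, and Cnn1 and Actg2 did not. The cells were PDGFRA-positive lung fibroblasts (PDGFRA is platelet-derived growth factor receptor alpha, a surface receptor carried by most lung fibroblasts) sorted from male C57BL/6J mice aged 9 to 11 weeks. One group of 9 mice breathed room air, and the other group of 9 mice breathed 10% CO2 with normal oxygen for 10 days, an exposure called hypercapnia. Cells of 3 mice were pooled for each RNA-seq library, which gave 3 libraries per group, M1 to M3 for room air and M4 to M6 for hypercapnia. No allele or transgene is named for either group, and the p-values measure the spread between pools of mice, not between single mice.

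Smooth muscle contracts when calcium and calmodulin switch on myosin light chain kinase, which phosphorylates the regulatory light chain of myosin and lets it pull on actin filaments. Calponin, transgelin, tropomyosin and leiomodin bind along or nucleate these filaments, and desmin links them to the rest of the cell. In the lung these genes are strongly used by airway and vascular smooth muscle, and a part of them, Acta2 and Tagln above all, is switched on when a fibroblast becomes a contractile myofibroblast. Many of them carry binding sites for serum response factor (SRF), which works with myocardin and the myocardin-related factors.

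Total counts per library ran from 8999780 to 10198336. This is more than the average number of aligned reads that the labels state, for a reason not given in the sources used here, so a count may not equal 1 read or fragment. Levels are given as CPM, which are counts scaled to equal library totals with TMM composition factors, and, where genes are compared with each other, as FPKM, the CPM divided by the gene's exonic length in kilobases. At this depth 3 counts corresponded to between 0.281 and 0.354 CPM. The column names show the group of a library but not which of the group's samples it is. Alveolar fibroblast markers were abundant (9 listed genes summing to between 19763 and 20246 CPM in room air and between 14916 and 17238 CPM in hypercapnia), and the leukocyte list of 6 genes summed to at most 60.7 CPM. The epithelial list of 6 genes summed to between 379 and 614 CPM in room air and between 297 and 439.6 CPM in hypercapnia, led by Scgb1a1 and Sftpc, genes of airway club cells and of alveolar type II cells, and the 4 mesothelial markers summed to at most 59.5 CPM.

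Sequence was considered first because several members have close relatives. The coding sequence of Acta2 is 1134 bases long, and that of Actg2, the other smooth muscle actin, is 84.2% identical to it. Cytoplasmic beta-actin, Actb, is 82.8% identical to Acta2. The first 60 coding bases of these 3 actins are shown, from GENCODE M21 transcripts and written 5′ to 3′. They are an example of the differences by which reads of these genes can be told apart. Capitals mark bases that differ from Acta2 once the coding sequences are aligned with gaps.
Acta2: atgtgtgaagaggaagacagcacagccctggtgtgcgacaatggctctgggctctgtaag
Actg2: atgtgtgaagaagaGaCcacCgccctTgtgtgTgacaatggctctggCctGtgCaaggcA
Actb: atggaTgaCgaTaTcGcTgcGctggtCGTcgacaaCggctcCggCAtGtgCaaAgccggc
Of all 50-base windows in the transcripts of a member, the share found exactly in another gene was 0.326% for Acta2 (with Actg1 among others), 0.34% for Myh11 (with Myh9 and Myh10) and 0.107% for Mylk. It was 0 for the other 7 members. Whether the counting used strand is not given in the sources used here. On the annotation, 5.43% of the exonic bases of Tagln overlap Pcsk7 on the opposite strand and 5.86% of those of Des overlap the gene model Gm15179 on the opposite strand, while the other 8 members overlap no exon of another gene. Reads from those stretches cannot be assigned with certainty.

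Promoter sequence from RefSeq (GRCm38.p6, 250 bases before the start) was searched for Acta2, Cnn1, Des, Lmod1, Myl9, Mylk and Tpm2. The motif was the CArG box, to which SRF binds, which is its own reverse complement in form and so covers both strands. A perfect box was found in Myl9 alone of these 7 genes, and a box with at most 1 G or C among its central 6 bases in Acta2 and Myl9. Of 32851 promoters in the same table, 482 (1.47%) held a perfect box and 2823 (8.59%) held one under the looser rule. The windows below are 30 bases each, 5′ to 3′ on the gene's strand, with the box in capitals, and are shown because they are the only matches among the 7 promoters searched.
Acta2, chr19:34255438-34255467, minus strand, box starting 84 bases upstream: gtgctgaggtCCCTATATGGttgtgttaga
Acta2, chr19:34255388-34255417, minus strand, 34 bases upstream: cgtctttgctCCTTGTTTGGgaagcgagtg
Myl9, chr2:156775293-156775322, plus strand, 161 bases upstream, the perfect box: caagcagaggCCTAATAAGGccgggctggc
Myl9, chr2:156775355-156775384, plus strand, 99 bases upstream: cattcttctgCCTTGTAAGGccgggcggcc
Both Acta2 windows lie within an untranslated exon that GENCODE M21 gives for the gene, so they are upstream only of the RefSeq start. A match describes the letters of the window and does not show that SRF was bound there.

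The question of the design was whether these genes differ between fibroblasts of mice breathing CO2 and of mice breathing room air. With edgeR's quasi-likelihood test and Benjamini-Hochberg adjustment over all tested genes, 0 of the 8 tested members passed an adjusted p of 0.05, where 159 of all 13005 genes (1.22%) passed, 68 higher (0.523%) and 91 lower (0.7%) in hypercapnia. At an unadjusted p under 0.05 there were 3 members (Myh11, Des and Mylk), all with negative log2 fold changes, against 12% of all tested genes (5.51% lower and 6.54% higher). DESeq2, limma-voom, edgeR with robust dispersion and edgeR without the filter on low counts each called 1 member, Mylk, as lower. Over all genes DESeq2 called 435 (3.34%, and 1.73% as lower), limma-voom 196 (1.51% and 0.854%) and robust dispersion 255 (1.96% and 1.11%). The fit without the filter called 756 of 20868 (3.62% and 1.38%). As higher, these settings called 210, 85, 110 and 467 genes, in that order. The log2 fold change was negative for 6 tested members and positive for Lmod1 and Tpm2, with a median of -0.23 over the 8, against 0.01 over all tested genes. In 3 tested members (Tagln, Myh11 and Mylk) every hypercapnia library was below every room air library, and none was the other way round, where 8.74% of all tested genes were separated as lower, 9.28% as higher and 18% in either direction. For 6 of the 8 the 95% interval of the fold lay within a 2-fold change in either direction. Myh11 and Lmod1 had wider intervals. In sorted bulk RNA, fewer cells of a kind and less RNA per cell cannot be told apart.

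**Figure D1:**
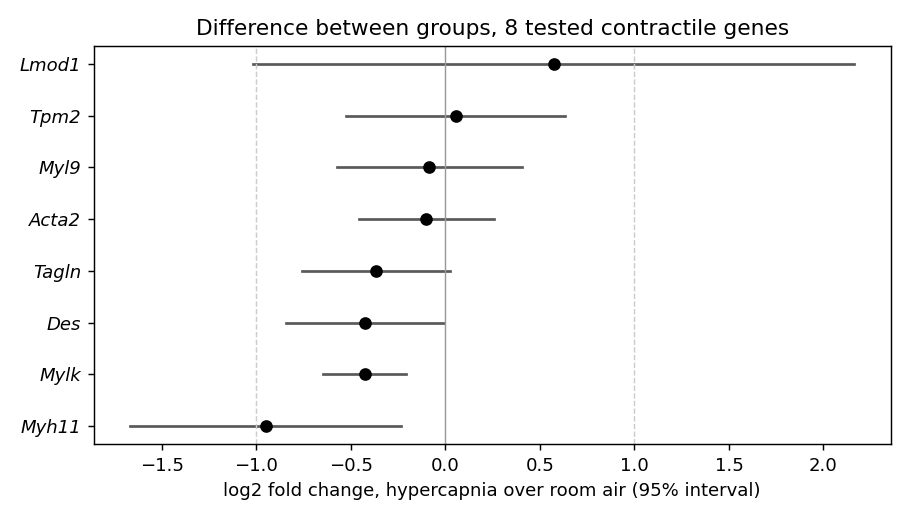
Log2 fold change of each tested member, hypercapnia minus room air, with its 95% interval from edgeR's quasi-likelihood test and dashed lines at a 2-fold change. The values run from -0.95 for Myh11 to 0.57 for Lmod1, and the Mylk interval, from -0.65 to -0.21, is the narrowest.

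Per exonic length, the members spanned a wide range in room air, in the order Mylk, Tagln, Myl9, Acta2, Des, Tpm2, Myh11, Actg2, Lmod1 and Cnn1. Mylk stood at 133 ± 6.71 FPKM (SD, n = 3), in percentile 98 of the tested genes, and Tagln at 92.3 ± 4.77 FPKM, in percentile 97. Myl9 and Acta2 overlapped each other in FPKM, at 23.3 ± 6.09 and 20.0 ± 1.89, as did each neighbouring pair from Myh11 down. Cnn1, at 0.215 ± 0.0868 FPKM, was the lowest. Genes that mark fully differentiated smooth muscle (Myh11, Cnn1, Actg2 and Lmod1) thus had room air means at or below 1.04 FPKM. Single room air libraries reached 1.30 FPKM for Myh11 and 1.28 FPKM for Actg2. The room air means of Mylk, Tagln, Myl9, Acta2 and Des exceeded 10 FPKM. In hypercapnia the order was the same except that Lmod1 stood above Actg2. Exonic length here joins the exons of all transcripts, so the FPKM of a gene with many transcripts, such as Mylk, is a low estimate.

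**Figure D2:**
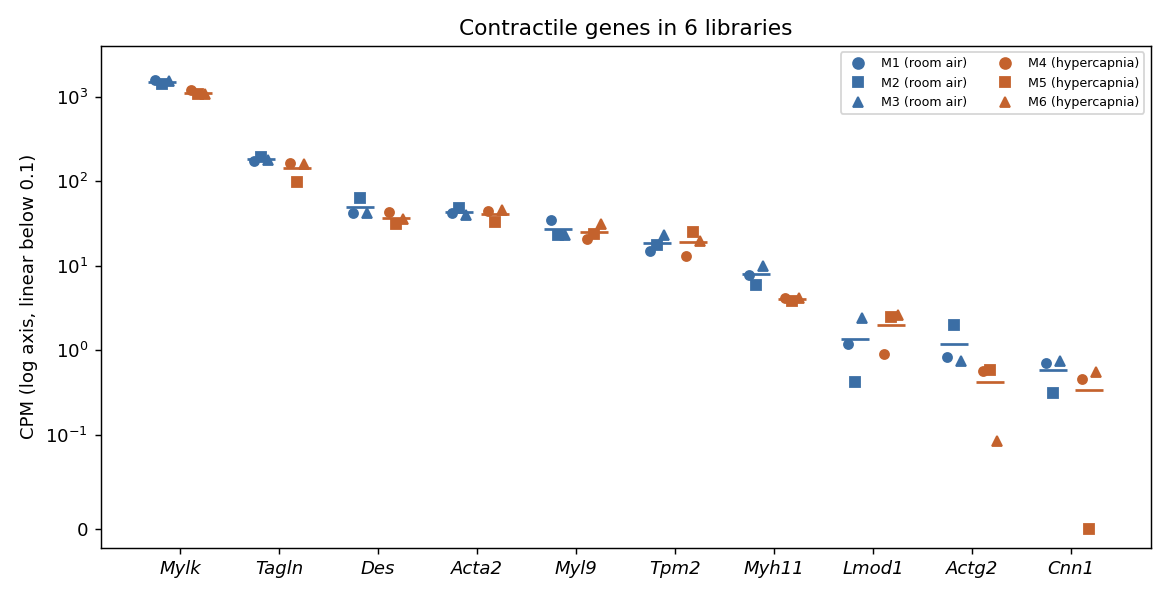
CPM of each of the 10 members in the 6 libraries on a log axis that is linear below 0.1 CPM, with points for libraries and lines for group means. Mylk lies between 1069 and 1568 CPM, and Cnn1 lies below 1 CPM in every library and at 0 in M5.

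The kinase was the most abundant member and had the smallest p. Mylk (ENSMUSG00000022836, mm10 chromosome 16, 34745210 to 35002420, plus strand, 38 merged exons), which encodes myosin light chain kinase, was at 1568, 1420 and 1523 CPM in the room air libraries and at 1201, 1069 and 1085 CPM in the hypercapnia libraries. All hypercapnia libraries lay below all room air libraries. The ratio of the group levels was 0.744 (95% interval 0.639 to 0.865), a log2 fold change of -0.43 ± 0.10 (SE), and the adjusted p was 0.0775 by edgeR's quasi-likelihood test. The adjusted p was 0.00578 with DESeq2, 0.0339 with limma-voom, 0.0241 with robust dispersion and 0.0163 without the filter on low counts. With 1 library left out in turn it ran from 0.0654 (without M4) to 0.323 (without M5), with log2 fold changes from -0.48 to -0.40, in the same edgeR test. The call thus depended on the tool and, within edgeR, on the dispersion and filter settings, while the size of the difference moved little.

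Of the motor proteins, Myh11 (ENSMUSG00000018830, chromosome 16, 14194535 to 14291372, minus strand), the smooth muscle myosin heavy chain, had the largest difference among the tested members. Its levels were 7.90, 5.99 and 9.87 CPM in room air against 4.22, 3.84 and 4.22 CPM in hypercapnia, from between 37 and 93 counts per library. The groups did not overlap. The ratio was 0.517 (95% interval 0.315 to 0.85), a log2 fold change of -0.95 ± 0.32, and adjusted p was 0.235 by edgeR's quasi-likelihood test. Myl9 (ENSMUSG00000067818, chromosome 2, 156775420 to 156781658, plus strand), the regulatory light chain that the kinase phosphorylates in smooth muscle, was at 35.3, 22.9 and 23.1 CPM in room air against 20.7, 24.0 and 31.7 CPM in hypercapnia. The groups overlapped, with the highest library, M1, in room air. Its ratio of 0.943 had a 95% interval from 0.671 to 1.32, so these libraries do not exclude a change within that range in either direction. Its log2 fold change of -0.09 turned to 0.15 without M1 and to 0.04 without M4.

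The actins did not separate. Acta2 (ENSMUSG00000035783, chromosome 19, 34241090 to 34255590, minus strand), the alpha smooth muscle actin used as the standard myofibroblast marker, was at 42.7, 48.5 and 40.5 CPM in room air against 44.8, 32.7 and 45.5 CPM in hypercapnia. M5 was the lowest library, and M4 and M6 lay within the room air range. The ratio was 0.932 with a 95% interval of 0.729 to 1.19, and adjusted p was 0.882 by edgeR's quasi-likelihood test. Without M5 the log2 fold change turned from -0.10 to 0.04. Actg2 (ENSMUSG00000059430, chromosome 6, 83512905 to 83536265, minus strand), the gamma actin of visceral smooth muscle, had 7, 19 and 7 counts in room air and 5, 6 and 1 counts in hypercapnia. These counts are close to the limit of detection, M6 lies below 3 counts, and the gene was not tested. The groups did not overlap.

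Among the thin-filament genes, Tagln (ENSMUSG00000032085, chromosome 9, 45929619 to 45936058, minus strand), which encodes transgelin or SM22 alpha, was at 176, 194 and 181 CPM in room air against 166, 99.4 and 161 CPM in hypercapnia. The hypercapnia libraries were all lower, with M5 far below the other two. The ratio was 0.775 (95% interval 0.592 to 1.02), a log2 fold change of -0.37 ± 0.18, and adjusted p was 0.448 by edgeR's quasi-likelihood test. Without M5 the log2 fold change was -0.17 ± 0.13. Tpm2 (ENSMUSG00000028464, chromosome 4, 43514711 to 43523765, minus strand), the beta-tropomyosin gene, was at 14.98, 17.7 and 23.3 CPM in room air against 13.0, 25.4 and 19.7 CPM in hypercapnia. The groups overlapped across nearly their whole range, with a ratio of 1.04 (95% interval 0.695 to 1.55), and the direction turned to -0.08 without M1 and -0.19 without M5 on the log2 scale.

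The remaining thin-filament genes were scarce. Lmod1 (ENSMUSG00000048096, chromosome 1, 135324807 to 135368065, plus strand), which encodes leiomodin 1, a nucleator of actin filaments in smooth muscle, had 10, 4 and 23 counts in room air and 8, 25 and 28 counts in hypercapnia. The groups overlapped, and the interval of the fold, 0.494 to 4.48, was the widest of the members. The log2 fold change of 0.57 ± 0.72 ranged from 0.14 without M2 to 1.33 without M3. Cnn1 (ENSMUSG00000001349, chromosome 9, 22099216 to 22109630, plus strand), the smooth muscle calponin, had 6, 3 and 7 counts in room air and 4, 0 and 6 counts in hypercapnia. The groups overlapped, and at this depth a count of 0 allows up to 3 counts.

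Desmin is the intermediate filament of muscle. Des (ENSMUSG00000026208, chromosome 1, 75360329 to 75368579, plus strand) was at 42.2, 63.0 and 42.7 CPM in room air against 43.1, 31.3 and 35.99 CPM in hypercapnia. M2 was the highest library, and M4 lay above M1 and M3, so the groups overlapped. The ratio was 0.745 (95% interval 0.557 to 0.996), a log2 fold change of -0.42 ± 0.19 with adjusted p = 0.407 by edgeR's quasi-likelihood test, and -0.21 ± 0.17 without M2.

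The summed level of the 10 members was 1889, 1775 and 1847 CPM in room air against 1494, 1289 and 1387 CPM in hypercapnia, so the groups did not overlap. Mylk made up between 78.2% and 83.0% of this sum in each library. Without it the sums were 321, 355 and 324 CPM in room air against 294, 220 and 302 CPM in hypercapnia, still without overlap. Tagln, whose groups did not overlap either, was the largest part of each of these sums. It was at 176, 194 and 181 CPM in room air against 166, 99.4 and 161 CPM in hypercapnia. M5 was the lowest of the 6 libraries for 6 of the 10 members: Acta2, Tagln, Myh11, Cnn1, Des and Mylk. These sums were not tested.

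Each muscle form was also set against its relatives as a share of the family's FPKM, in 7 families. The relatives were non-muscle forms, except that the actins also included the muscle actins Actg2, Acta1 and Actc1. Acta2 was 1.59 ± 0.178% of the FPKM of 6 actins in room air and 1.92 ± 0.252% in hypercapnia, with overlapping groups (exact two-sided permutation p = 0.3). Myh11 was 0.648, 0.596 and 1.09% of the FPKM of 4 heavy chains in room air and 0.405, 0.423 and 0.509% in hypercapnia. The groups did not overlap, with an exact permutation p of 0.1, the smallest that 3 libraries against 3 can give, and 0.35 after Benjamini-Hochberg adjustment over the 7 families. Des was 3.24, 4.80 and 3.51% of the summed FPKM of Des and Vim in room air and 2.67, 2.15 and 2.36% in hypercapnia, again without overlap and with the same exact permutation p of 0.1. Tagln was 22.8 ± 1.15% of the FPKM of Tagln and Tagln2 in room air and 22.5 ± 3.99% in hypercapnia. Myl9, at 15.4 ± 3.29% and 14.1 ± 2.42% of 3 light chains, Tpm2, at 3.20 ± 0.814% and 3.45 ± 1.29% of 4 tropomyosins, and Cnn1, at 0.0823 ± 0.0369% and 0.0515 ± 0.0455% of 3 calponins, also overlapped between the groups.

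**Figure D3:**
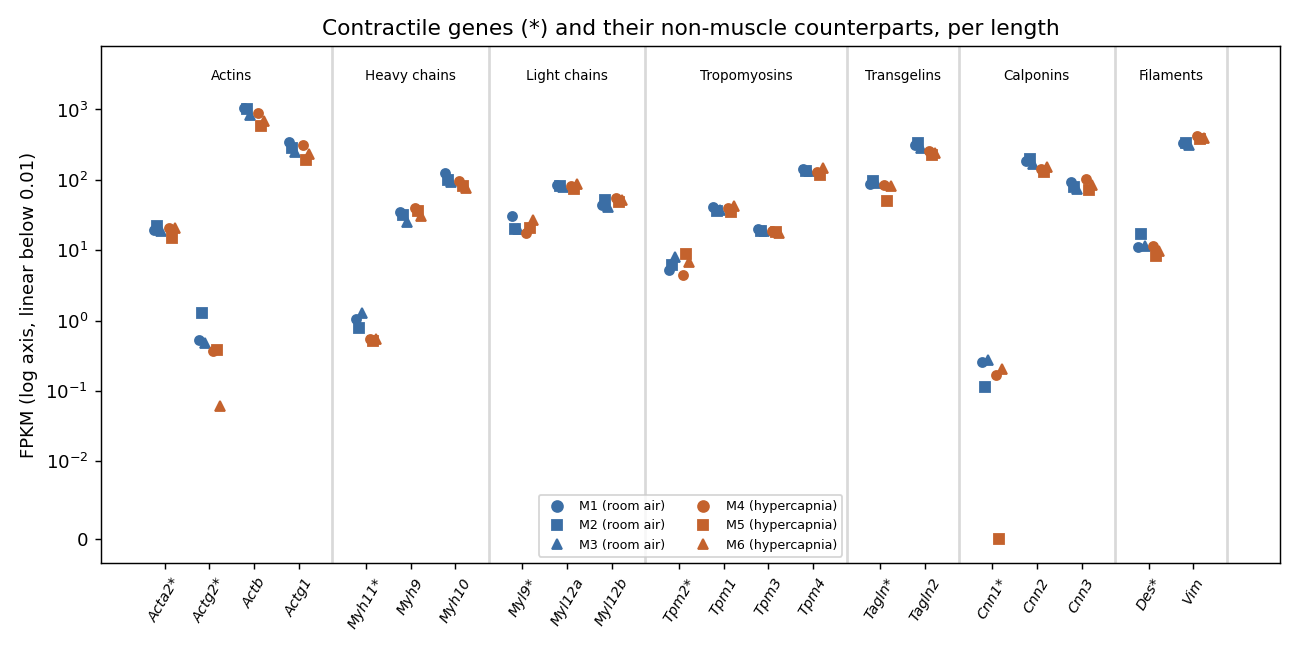
FPKM of each muscle form and of its relatives in the 6 libraries, by family, on a log axis that is linear below 0.01 FPKM. Myh14, Acta1 and Actc1, which enter the family shares, are not drawn. Vim, at 327 FPKM in room air and 398 FPKM in hypercapnia, and Actb, at 954 and 717 FPKM, lie far above Des and Acta2.

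Of the 16 non-muscle counterparts, 0 passed edgeR's quasi-likelihood test and 5 had an unadjusted p under 0.05. DESeq2 called 1 as lower, Tagln2 (adjusted p = 0.0479), the edgeR fit without the filter called 1 as lower, Actb, and limma-voom called 0. Tagln2, a transgelin of non-muscle cells, stood at 651 ± 55.5 CPM in room air against 505 ± 27.6 CPM in hypercapnia, a log2 fold change of -0.37 ± 0.11 and close to that of Tagln. Vim, which encodes vimentin, the intermediate filament of fibroblasts, was at 1552 ± 62.2 and 1887 ± 95.1 CPM, a log2 fold change of 0.28 ± 0.09 (adjusted p = 0.215, edgeR). Cnn2, a calponin of non-muscle cells, had a log2 fold change of -0.38 ± 0.12, and Actb one of -0.41 ± 0.15. The counterparts thus lay on both sides of 0, with a median of -0.04.

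Of 21 other genes of the smooth muscle apparatus, 19 were tested, 1 fell and 0 rose, with a median log2 fold change of -0.20 and 13 negative values. DESeq2 called 4 of them and limma-voom 2, all lower. The gene that fell was Pgm5, aciculin, a protein of actin attachment sites. It was at 154, 137 and 112 CPM in room air against 84.9, 66.5 and 80.6 CPM in hypercapnia, a log2 fold change of -0.79 ± 0.15 with adjusted p = 0.0317 by edgeR's quasi-likelihood test. That call was lost without M1 (adjusted p = 0.0782), M2 (0.175), M5 (0.164) or M6 (0.106), each with edgeR. Csrp1, a LIM protein of the actin cytoskeleton and a marker of smooth muscle, was at 1380, 1501 and 1527 CPM in room air against 1027, 842 and 1114 CPM in hypercapnia. The groups did not overlap, the log2 fold change was -0.56 ± 0.12 and adjusted p was 0.0546 by edgeR, and DESeq2, limma-voom, robust dispersion and the edgeR fit without the filter on low counts called it. Mustn1, at 25.3 ± 3.19 and 13.6 ± 3.42 CPM, and Cald1, which encodes caldesmon, at 416 ± 23.2 and 321 ± 11.3 CPM, did not pass with edgeR (adjusted p = 0.0904 and 0.138) but did with DESeq2. Casq2, a calcium store protein of muscle, had 0 counts in every library, which allows up to 3 counts in each.

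Of 18 genes of contraction signalling, 15 were tested and 0 passed edgeR's test, with 3 at an unadjusted p under 0.05 and 12 negative values. DESeq2, limma-voom, robust dispersion and the endothelial covariate each called 1, Ednra, as lower, and edgeR without the filter on low counts called 2, Ednra and Ppp1r14a. Ednra, the endothelin receptor through which endothelin constricts vessels, was at 522, 528 and 489 CPM in room air against 380, 382 and 333 CPM in hypercapnia. All hypercapnia libraries were lower, with a log2 fold change of -0.49 ± 0.11 and adjusted p = 0.0644 by edgeR. Ppp1r14a, an inhibitor of myosin phosphatase, had a log2 fold change of -0.44 ± 0.18, the groups overlapped, and the value was -0.14 with the endothelial covariate. The subunits of the large-conductance potassium channel that relaxes smooth muscle were at or near 0, with 0 counts of Kcnma1 in all libraries and 0 to 8 counts of Kcnmb1.

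Of 15 regulators around SRF and myocardin, 14 were tested and 1 rose. That was Csrp2, which encodes a LIM protein that acts with SRF in smooth muscle, at 15.2, 20.7 and 22.0 CPM in room air against 39.3, 40.8 and 44.9 CPM in hypercapnia. The hypercapnia libraries were all higher, with a log2 fold change of 1.11 ± 0.17 and adjusted p = 0.0156 by edgeR's quasi-likelihood test. The call was lost without M2 (adjusted p = 0.078), M5 (0.0745) or M6 (0.0838), each with edgeR. Srf itself was at 131, 106 and 78.7 CPM in room air against 143, 66.7 and 117 CPM in hypercapnia, so the groups overlapped widely. Mrtfa, a coactivator of SRF, was at 37.3 ± 2.07 and 38.6 ± 3.90 CPM, and Mrtfb at 42.1 ± 10.3 and 54.2 ± 5.28 CPM, neither past edgeR's test. Mef2a and Fhl1 were lower in every hypercapnia library than in any room air library, where 8.74% of all tested genes were. Their log2 fold changes were -0.33 ± 0.11 and -0.21 ± 0.10 (adjusted p = 0.248 and 0.417, edgeR). Over the 14 tested regulators, 9 values were positive and 5 negative, with a median of 0.02. Myocd, which encodes myocardin, had 0, 5 and 0 counts in room air and 0, 19 and 0 in hypercapnia, and was not tested. The counts of Myocd thus came from M2 and M5 alone.

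**Figure D4:**
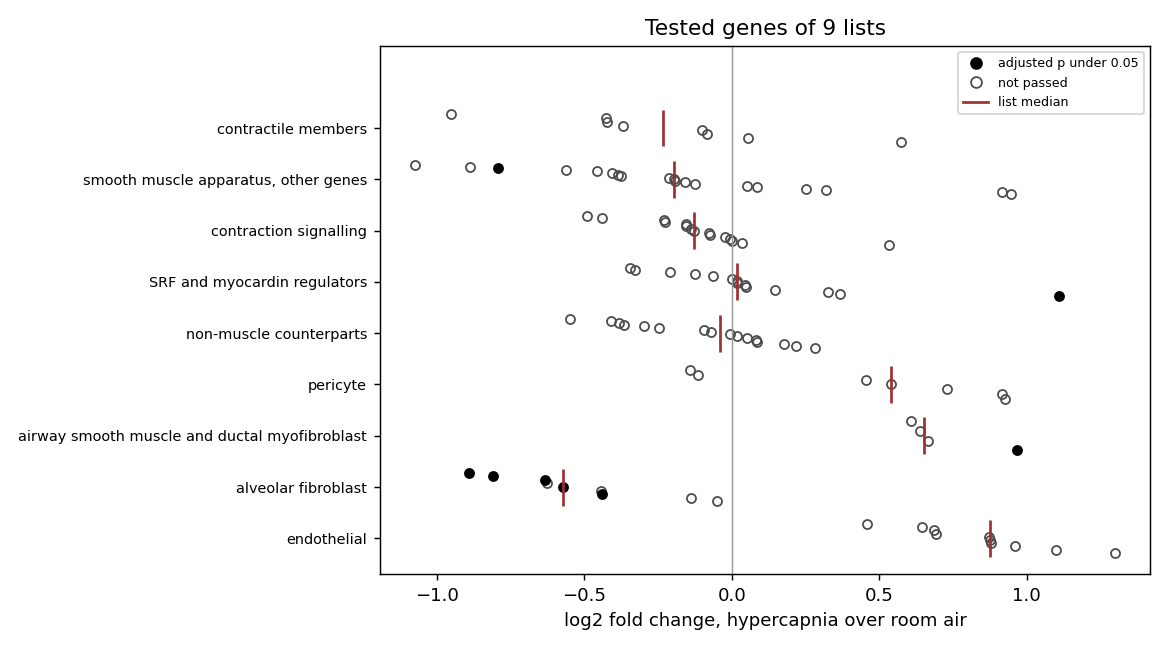
Log2 fold change of every tested gene in the lists drawn, hypercapnia minus room air, with filled points for an adjusted p under 0.05 and a bar for the median of each list. Drawn are the members, the other smooth muscle apparatus, contraction signalling, SRF regulators and non-muscle counterparts. The marker lists drawn are those of pericytes, airway smooth muscle and ductal myofibroblasts, alveolar fibroblasts and endothelial cells. Other lists are not drawn. The members have a median of -0.23, while all 10 endothelial markers lie above 0 and all 9 alveolar fibroblast markers below it.

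Of 10 pericyte markers, 7 were tested and 0 passed edgeR's test, with 2 at an unadjusted p under 0.05. The log2 fold change was positive for 5 of them and negative for Pdgfrb (-0.12) and Cspg4 (-0.14), named after their values were seen, where 51.5% of all tested genes were positive. DESeq2 called 2 of them as higher (Abcc9 and Kcnj8, subunits of a potassium channel) and limma-voom 1. The median log2 fold change of the tested markers was 0.54. The summed level of the list was 349.5 to 395.6 CPM in room air against 411 to 511 CPM in hypercapnia. Abcc9, Pdgfrb and Kcnj8 made up most of that sum. The untested markers Higd1b, Cox4i2 and Trpc6 had 0 to 19 counts per library, and Rgs5 had 2 to 40. Of 6 markers of airway smooth muscle and ductal myofibroblasts, 4 were tested, all positive, and 1 rose, Aspn, which encodes a small matrix proteoglycan. Aspn was at 47.8, 28.8 and 34.8 CPM in room air against 82.5, 61.7 and 73.5 CPM in hypercapnia (log2 fold change 0.97 ± 0.19, adjusted p = 0.041, edgeR). The adjusted p was above 0.05 in edgeR with any of M2 to M6 left out, from 0.0691 to 0.201, and 0.0945 with the endothelial level as a covariate. The summed level of those 6 markers was 115 to 160 CPM in room air against 223 to 233 CPM in hypercapnia. Hhip was the most abundant of them, with mean CPM of 89.8 (room air) and 137 (hypercapnia), and its groups did not overlap. Its log2 fold change of 0.61 ± 0.13 missed edgeR's threshold (adjusted p = 0.0682). DESeq2 (adjusted p = 0.00527), limma-voom (0.0476), robust dispersion, library totals alone and edgeR without the filter on low counts called it higher. It was not called with RLE factors, a minimum count of 30, the endothelial covariate or any library left out.

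Markers of endothelial cells had positive log2 fold changes and those of alveolar fibroblasts negative ones. The summed level of 10 endothelial markers was 506 to 1788 CPM in room air against 1724 to 2778 CPM in hypercapnia, with no marker at 0. Of these, 0 passed edgeR's test and 5 had an unadjusted p under 0.05, where 6.54% of all tested genes were higher at that level. DESeq2 called 2 as higher, where it called 210 of all 13005 genes as higher, and limma-voom called 0. The edgeR fit without the filter on low counts called 9 as higher, where it called 467 of 20868 genes as higher. Of 9 alveolar fibroblast markers 5 fell and 4 did not pass, with 0 calls by edgeR without M2 or without M5 and 1 without M6. One of those that fell was Col13a1, a collagen gene, at 618 ± 66.7 and 333 ± 22.6 CPM (adjusted p = 0.0077, edgeR). M3 had the lowest count of each of the 10 endothelial markers, and without it the log2 fold change was -0.42 for Mylk and -0.76 for Myh11. With the endothelial level as a covariate the log2 fold change of Mylk was -0.45, and that of Myh11 was -0.68 ± 0.43. That level was the mean log2 CPM of the 10 markers, 6.913, 6.655 and 5.21 in room air against 7.578, 7.285 and 6.896 in hypercapnia. It ran higher in hypercapnia, so this fit cannot separate the endothelial level from the exposure. The part of the pericyte, airway, endothelial and alveolar markers in the members' levels was not tested. Striated muscle genes were scarce, and 13 of 15 did not reach the filter. Their sum was 8.49 to 12.4 CPM in room air and 13.0 to 22.3 CPM in hypercapnia, without overlap. Tnnc1, which encodes a troponin C of heart and slow muscle, was at 4.35 ± 0.874 CPM in room air against 9.82 ± 3.16 CPM in hypercapnia, a log2 fold change of 1.17 ± 0.33 that did not pass edgeR's test (adjusted p = 0.150) and was called by edgeR without the filter on low counts. The part of these genes in the members' levels was not tested.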

How the data were processed

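The authors deposited raw read counts per gene, whole numbers with no normalization, for 3 room air and 3 hypercapnia libraries. The submitters' processing notes name the mm10 build, HTSeq, TopHat2 2.1.0, FastQC and bcl2fastq 2.17.1.14. Which annotation was counted, whether strand was used and how reads were filtered is not given in the sources used here. Columns were assigned to groups by name. Library sizes were TMM-scaled (factors 0.943 to 1.049), genes were filtered with edgeR's filterByExpr (minimum count 10), and the groups were compared with edgeR 4.0.16's quasi-likelihood test in R 4.3.3, two-sided, with Benjamini-Hochberg adjustment over 13005 genes. DESeq2 1.42.0 and limma 3.58.1 (voom) were alternatives. FPKM was computed here from the TMM-scaled CPM and GENCODE M21 merged exon length. The pipeline was tested on simulated data. Counts of library pairs differed beyond sampling noise (chi-square per degree of freedom at least 13.3), so each was counted as its own library.

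The members and the gene lists were chosen with earlier results of these data known. Named are all 10 members and the 5 genes whose profile was most like that of the members. Most other named genes come from the up to 4 tested genes with the smallest p of each other list, or from the non-muscle relatives. Not all of these are named, and for some lists none is. Srf, Mrtfa, Myocd, Casq2, Kcnma1 and Kcnmb1 were named for their role, after their values were seen. Higd1b, Cox4i2, Trpc6 and Rgs5 were named for their low counts. Leukocyte, mesothelial and epithelial lists are given as sums. Intervals cover 95%.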

Additional observations from a re-analysis of the deposited data

How the results depend on the processing

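In all, 14 other settings were run. No member was called under RLE factors, library totals alone, a minimum count of 30 (which left Lmod1 untested), the endothelial covariate or with any library left out (0 to 0). Without the filter, with DESeq2, with limma-voom and with robust dispersion 1 member was called. Over all genes 159 were called, 756 without the filter, 435 with DESeq2, 255 with robust dispersion, and 24 (without M2) to 148 (without M4) with a library left out. The comparison of settings covered 43 genes: the tested members, the non-muscle relatives and the genes with the smallest p of some other lists. Of 600 values, 540 kept direction and side of the threshold, 32 passed it newly, 13 no longer passed and 15 reversed. With library totals alone the log2 fold change of Myl12a became 0.059, and with the stricter minimum 0.0026. With the endothelial covariate Myh9 became -0.078 and Cnn3 -0.095. With a library left out, the log2 fold change ran from -0.27 to 0.15 for Myl9, -0.19 to 0.27 for Tpm2, -0.18 to 0.037 for Acta2, -0.065 to 0.049 for Myl12a, -0.060 to 0.19 for Cnn3, -0.17 to 0.00052 for Tpm4, -0.022 to 0.13 for Tpm1 and -0.24 to 1.03 for P2ry14. No paired analysis was possible because the columns carry no replicate numbers shared between the groups. The number of libraries, the pooling of mice and counts under 100 for Myh11, Lmod1, Cnn1 and Actg2 limit what could be detected. The cause of these shifts was not tested.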

Other observations

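Across the 6 libraries, the genes whose log2 CPM was most like the mean standardised level of the 8 tested members were Cpa3 (Pearson r = 0.993), Lzts2 (0.989), Tmem176a (0.988), Nt5c3 (0.986) and Zfp131 (0.986). Cpa3, the carboxypeptidase of mast cells, was at 6.49, 6.62 and 10.6 CPM in room air against 1.82, 1.18 and 4.499 CPM in hypercapnia, without overlap between the groups. None of these 5 genes passed edgeR's quasi-likelihood test (adjusted p = 0.172 for Cpa3, the smallest of the 5). They were picked from 13005 genes for their likeness over few libraries that also share the group difference, so the values are a description.

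Among markers of activated fibroblasts, 7 of 9 were tested and 1 rose. The log2 fold change was positive for 5 of the 7 and negative for 2, with a median of 0.38, where 51.5% of all tested genes were positive. Ltbp2, a matrix protein that binds elastic fibre components, was at 147 ± 15.2 CPM in room air against 393 ± 29.8 CPM in hypercapnia, a log2 fold change of 1.42 ± 0.12 with adjusted p = 0.000642 by edgeR's quasi-likelihood test. Col12a1 had a log2 fold change of 0.43 ± 0.17 with overlapping groups, and only edgeR without the filter on low counts called it higher. Tnc, a matrix glycoprotein, had a log2 fold change of -0.34 ± 0.14 and Fn1, fibronectin, one of -0.18 ± 0.11, neither past the test. Acta2, the usual companion marker of activation, did not separate in the same libraries. All 5 adventitial fibroblast markers had positive log2 fold changes, with a median of 0.53, and 0 passed edgeR's test, with 4 at an unadjusted p under 0.05, 3 called by DESeq2 and 0 by limma-voom.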
